A study of Homo sapiens with 19 samples.

Results

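Hedgehog ligands, their receptors and their targets were followed in human liver organoids through 7 genes: the ligands SHH and IHH, the receptor PTCH1, the ligand-binding inhibitor HHIP, and the transcription factors GLI1, GLI2 and GLI3. They are 7 of the 32703 gene identifiers listed in every matrix and were matched by Ensembl identifier. All 7 were found in all 19 libraries. They were chosen from their levels in these same libraries and in cells with epithelial or collagen transcripts, so their values are given as a description, without a test. In GENCODE 44 (GRCh38), all protein-coding, SHH lies on chromosome 7 (155799980 to 155812463), IHH on chromosome 2 (219054424 to 219060921), PTCH1 on chromosome 9 (95442980 to 95517057) and HHIP on chromosome 4 (144646156 to 144745271). GLI1 lies on chromosome 12 (57459785 to 57472268), GLI2 on chromosome 2 (120735623 to 120992653) and GLI3 on chromosome 7 (41960949 to 42264100).

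The organoids came from W01, an established human pluripotent stem cell line, and were profiled by droplet single-cell RNA sequencing, which counts unique molecular identifiers (UMIs). ULA (ultra-low attachment) plates held the organoids sampled on day 21 (n = 3) and day 34 (n = 2). An orbital shaker (OS) held 7 groups of 2 libraries, all labelled day 25. They were untreated, TGFB1 (10 ng/ml, a fibrogenic cytokine) and its control, PA (500 µM) and its control, and OA (500 µM) and its control. PA and OA are abbreviations of the labels, which do not spell them out. Treatment with TGFB1 or PA began after 20 days of culture and ran for 5 days, per the labels, whose protocols do not mention OA. At dissociation, day 34 ULA organoids and every OS group received an added wash and 10 more minutes in trypsin. No label says that replicates were separate cultures or differentiations, and all came from 1 line, so any p-value measures only the spread between these libraries.

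Hedgehog ligands are secreted proteins, in many endoderm-derived organs made by the epithelium and received by the mesenchyme beneath it. Without ligand, PTCH1 holds the membrane protein SMO inactive. Ligand binding frees SMO and lets GLI factors activate transcription. GLI1, PTCH1 and HHIP are themselves targets, and so serve as a readout of the signal, while PTCH1 and HHIP also bind ligand and limit it. GLI2 is the main activator at the start of a response and GLI3 is largely a repressor. In the liver the pathway is quiet in adult health and is known for activity in stellate cells, myofibroblasts and ductular cells during injury.

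GLI factors bind a short sequence, GACCACCCA or TGGGTGGTC on the other strand. It was searched on both strands in the 250 bases before each RefSeq transcription start (GRCh38.p14), and 70 of 35116 such windows held it, or 0.199%. Of the members, 5 of 7 matched an entry, with 10 windows, and 1 window held the motif, at 1 of 5 PTCH1 starts. None of the 48 windows of 28 other pathway genes held it. The PTCH1 window is shown because it holds the match (capitals, 172 to 164 bases before the start, chr9:95509267-95509516, minus strand), and the HHIP window (chr4:144645906-144646155, plus strand) because HHIP is the other target whose level varied most and has no match there. A match describes these letters and is not a site shown to be bound.
PTCH1: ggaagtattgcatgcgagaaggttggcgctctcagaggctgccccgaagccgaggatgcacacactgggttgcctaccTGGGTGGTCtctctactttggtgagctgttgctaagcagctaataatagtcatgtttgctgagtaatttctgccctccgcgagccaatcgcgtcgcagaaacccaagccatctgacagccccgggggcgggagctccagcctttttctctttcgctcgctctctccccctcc
HHIP: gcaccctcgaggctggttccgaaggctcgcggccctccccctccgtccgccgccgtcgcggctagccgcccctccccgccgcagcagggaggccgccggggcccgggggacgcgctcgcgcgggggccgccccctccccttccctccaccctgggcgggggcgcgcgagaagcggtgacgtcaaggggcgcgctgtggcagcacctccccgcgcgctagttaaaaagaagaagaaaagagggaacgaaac

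Libraries held 7476533 to 92522222 UMIs, and 3089 to 12427 cells per library passed the limits of 500 detected genes or more and mitochondrial UMIs of 20% or less. Median depth was 1310 to 14304.5 UMIs per kept cell. Any pair of libraries shared at most 0.581% of the cell barcodes of the smaller one. Cells were divided by 3 genes. The mesenchymal gate held cells with a UMI of COL1A2 or COL3A1 and none of EPCAM, the epithelial gate cells with EPCAM and neither collagen. Cells positive for both made up 1.93% to 59.7% of a library, the most in ULA day 34 replicate 2, and belong to neither gate. TGFB1 control replicate 1 stood apart in depth, with the lowest median and 44.7% of its cells negative for all 3 genes. The mesenchymal gate carried 2850 to 13770 CPM (UMIs per 1000000 UMIs) summed over 7 mesenchymal markers outside OA. Those markers include COL1A2 and COL3A1, which set the gate. The endothelial list reached 12.9 CPM at most, so endothelial cells were near absent from this gate.

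Ligand and response genes differed between the gates. Cells positive for both, left out of this contrast, held 35.0% to 59.0% of HHIP UMIs and 27.8% to 32.9% of SHH UMIs in ULA day 21. Over the 17 libraries with at least 50 cells in each gate, HHIP was higher in mesenchymal-gated cells by a median of 4.93 on the log2(CPM + 1) scale (SD 1.41, n = 17 libraries) and GLI3 by 4.34 (SD 0.89). GLI2, PTCH1 and GLI1 were higher there by 3.13, 2.99 and 2.90. SHH differed the other way, by -3.91 (SD 1.16), and IHH by -2.84 (SD 1.42), both lower in the mesenchymal gate in 17 of 17 libraries. HHIP and the 3 GLI genes were higher in the mesenchymal gate in 17 of 17 libraries and PTCH1 in 16. The exception for PTCH1 was TGFB1 replicate 2, with 10.55 CPM in the mesenchymal and 10.61 CPM in the epithelial gate. The rule for choosing the genes used this contrast, so nothing is inferred from it.

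**Figure D1:**
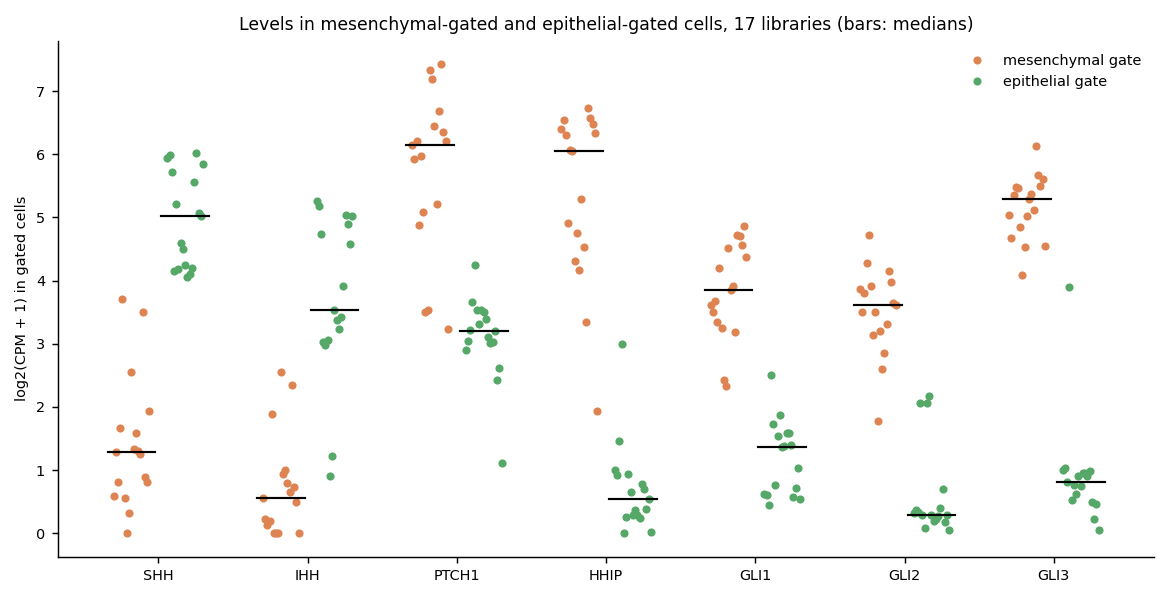
Level of each gene, log2(CPM + 1) on the vertical axis, in mesenchymal-gated (orange) and epithelial-gated (green) cells of the 17 libraries with at least 50 cells in both gates; each point is 1 library and bars are medians. SHH and IHH are higher in epithelial-gated cells, the other 5 genes in mesenchymal-gated cells, and PTCH1 is also measured in the epithelial gate of most libraries.

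PTCH1 was measured in the epithelium as well. Its epithelial-gate level was 6.47, 7.23 and 8.31 CPM in ULA day 21, 18.0 and 10.6 CPM in the TGFB1 control, 10.3 and 9.53 CPM in the PA control and 4.38 and 5.12 CPM in the OA control. The ratio of PTCH1 to HHIP UMIs in OA control was 0.914 and 0.917 in the mesenchymal gate against 14.4 and 11.3 in the epithelial gate, and in ULA day 21 it was 0.834, 0.647 and 0.932 against 6.42, 8.08 and 4.77. It was higher in the epithelial gate in 16 of the 16 libraries that gave both ratios, least so in ULA day 34 replicate 2, at 0.977 and 1.67. The ratio restates the gate contrast that was used to choose the genes, so nothing is inferred from it. In the epithelial gate it rested on 2 HHIP UMIs in both OA libraries together and 13 in both OA control libraries.

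The share of cells with a UMI depended on depth as well as on the gate. With every cell thinned to 2000 UMIs, which left out 31 and 41 shallower cells of the mesenchymal and epithelial gates, HHIP was seen in 12.3% of mesenchymal-gated and 0.576% of epithelial-gated cells of ULA day 21 replicate 1. Unthinned, the shares were 36.1% and 1.76%, at median depths of 8965 and 18162.5 UMIs. SHH showed the opposite: 0.138% of thinned mesenchymal-gated against 10.8% of epithelial-gated cells, or 0.407% and 54.7% unthinned. The thinned HHIP share in epithelial cells and SHH share in mesenchymal cells rested on 6 and 3 cells. Whether they reflect expression in those cells was not tested.

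Of the 10 pairs among HHIP, PTCH1 and the GLI genes, 8 met in more mesenchymal cells than the product of their shares gives. Pairs of genes outside the 7 were not counted, so how common such a ratio is in this gate is not known. HHIP and PTCH1 were both seen in 494 thinned cells where the product of their shares gives 286.6, a ratio of 1.72, above 1 in 10 of 10 libraries with enough cells. PTCH1 with GLI1 gave 1.56 (9 of 9 libraries above 1) and HHIP with GLI1 1.70 (8 of 9). GLI3 gave 0.996 with HHIP and 0.996 with PTCH1 but 1.16 with GLI1, where 63 cells held both against 54.25 (7 of 9 libraries above 1). GLI2 gave 1.48 with GLI1, on 24 cells, 1.21 with GLI3, 1.19 with PTCH1 and 1.14 with HHIP. In the epithelial gate SHH and IHH met 98 times against 67.79, a ratio of 1.45 (11 of 14 libraries above 1). Cells of 1 library share their source, and no test was made.

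**Figure D2:**
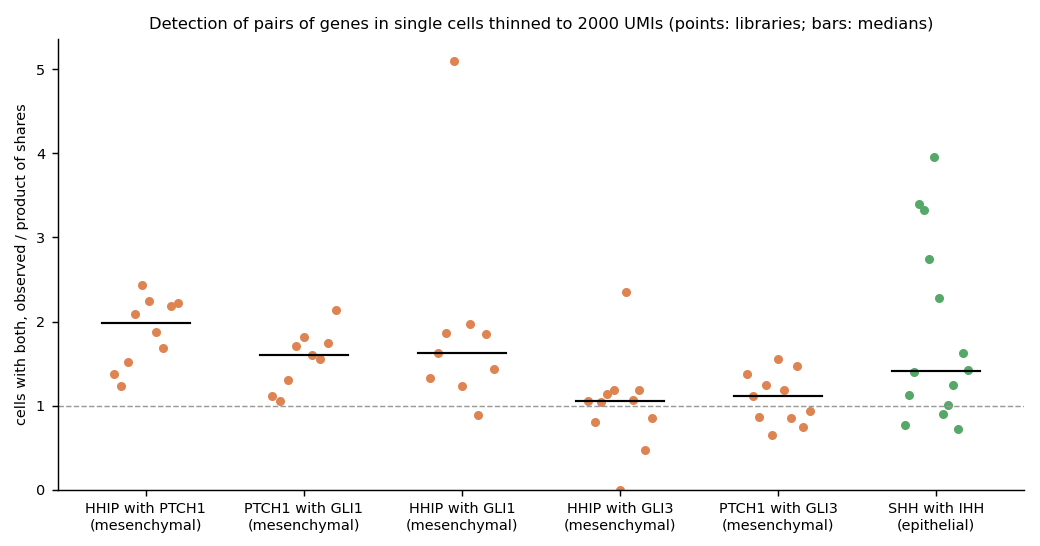
Cells in which both genes of a pair had a UMI, divided by the number given by the product of their shares (vertical axis, dashed line at 1), after thinning each cell to 2000 UMIs; each point is 1 library, bars are medians, orange is the mesenchymal and green the epithelial gate. HHIP with PTCH1 lies above 1 in 10 of 10 libraries, whereas the pairs of GLI3 with HHIP and PTCH1 scatter around 1.

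Mesenchymal-gated cells with a PTCH1 UMI (2408 cells in 10 libraries) also differed in some other Hedgehog genes from those without. FOXF2, a forkhead factor of gut and lung mesenchyme and a known Hedgehog target, was higher by a median log2 ratio of 1.86, with median levels of 38.5 against 7.27 CPM, in 10 of 10 libraries. FOXL1, which marks mesenchymal cells next to gut epithelium, was higher by 1.42 in 9 of 10 (6.74 against 1.54 CPM). GLI1 was higher by 1.00 in 10 of 10 (26.6 against 11.9 CPM). SMO, the transducer, was higher by 0.40 in 9 of 10, GLI3 by 0.03 in 5 of 10. Of the other targets FOXF1 was higher by 0.84 and BMP4 by 0.55, each in 8 of 10, and BCL2 by 0.36 in 7 of 10. OSR1 was higher by 0.18 in 8 of 10. SPP1 (-1.14) and PTHLH (-1.02) were lower. SFRP1 (-0.15), NR2F1 (-0.08), NR2F2 (-0.0007), MYCN (0.01), CCND2 (0.03) and CCND1 (0.05) were near level. Over the 38 other pathway genes the median ratio was above 0 for 23, below 0 for 12 and at 0 for 3, with a median of 0.06. The share above 0 among all genes was not counted. Among abundant genes the largest differences after HHIP (1.45) were SPARCL1, a matrix glycoprotein, at 1.18, FAT4, an atypical cadherin, at 1.05, and the fibrillin FBN2 at 0.80. Cells with an HHIP UMI (2057 cells in 9 libraries) had more PTCH1 (median log2 ratio 1.15), FOXL1 (1.52) and FOXF2 (0.80), each in 9 of 9 libraries. They had less SPP1 (-1.31), PTHLH (-0.84), CDON (-0.75) and MYCN (-0.33). Several of these ratios rest on few UMIs per library. Median levels were 7.81 against 1.77 CPM for FOXL1, 0 against 4.13 for PTHLH, 4.24 against 7.06 for CDON and 5.59 against 6.28 for MYCN. Over the 38 other pathway genes the median ratio with HHIP was above 0 for 20, below 0 for 16 and at 0 for 2, with a median of 0.014. Markers of other cell types differed beside this. In cells with a PTCH1 UMI the 5 epithelial markers were lower in 9 of 10 libraries (median 649.5 against 871.1 CPM), the ductal list in 8 (91.0 against 298 CPM), smooth muscle in 8 and hepatocyte markers in 7. In cells with an HHIP UMI the epithelial and hepatocyte lists were lower in 9 of 9 libraries and the ductal list in 8. The cycling list was higher in 8 of those 9 libraries (median 614.5 against 357.9 CPM) and in 8 of 10 for PTCH1 (457.8 against 379.1 CPM). The part of these lists in the ratios was not tested.

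Epithelial-gated cells with an IHH UMI (796 cells in 10 libraries) had more transcripts of intestinal epithelial genes. The membrane mucin MUC13 was higher by a median log2 ratio of 1.44 (209 against 64.8 CPM), the lectin LGALS4 by 1.43, the keratin KRT20 by 1.43 and the brush border protease MEP1A by 1.40, in 8, 9, 9 and 10 of 10 libraries. SCG2 and CHGA, of endocrine cells, had medians of 1.92 and 1.16 but were higher in only 6 and 5 of the 10. SHH-positive cells (2225 cells in 15 libraries) differed less: MGLL, a monoglyceride lipase, was higher by 0.74 and PLAC8 by 0.73, each in 13 of 15 libraries, and FGB, fibrinogen beta, by 0.61 in 14 of 15. FGB is 1 of the 6 hepatocyte markers, and that list as a whole was lower in SHH-positive cells in 9 of 15 libraries (median 11530 against 15040 CPM) and in IHH-positive cells in 7 of 10. The gut epithelial list was higher in IHH-positive cells in 10 of 10 libraries and in SHH-positive cells in 11 of 15, and the epithelial list in 4 of 10 and 13 of 15. The cycling list was lower in IHH-positive cells in 6 of 10 and in SHH-positive cells in 13 of 15 (median 97.1 against 133.9 CPM). The ductal list was lower in 8 of 10 and 9 of 15. The part of these lists in the ratios was not tested.

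**Figure D3:**
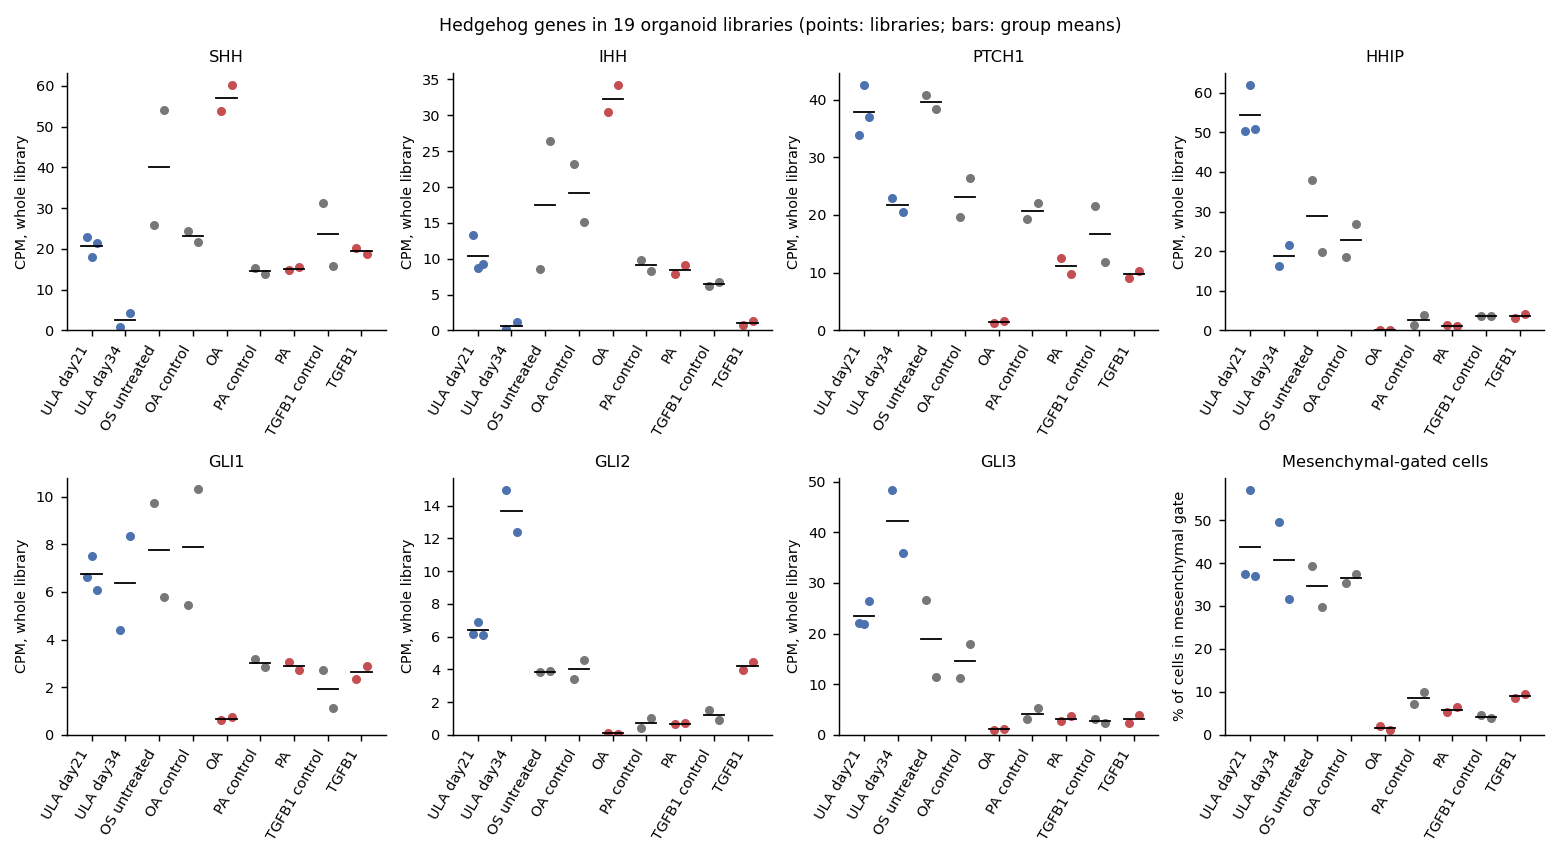
Whole-library CPM of the 7 genes and, in the last panel, the percentage of kept cells in the mesenchymal gate, by group on the horizontal axis; each point is 1 library, bars are group means, blue is ULA, grey untreated or control OS and red treated OS. The 4 groups with the highest means of HHIP, GLI1 and GLI3 are those with the most mesenchymal-gated cells, and SHH and IHH are highest with OA.

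SHH, the ligand best known from neural tube, limb and foregut, was at 22.8, 18.1 and 21.5 CPM of whole libraries in ULA day 21 and at 0.925 and 4.31 CPM on day 34. OS libraries held 25.9 and 54.1 CPM untreated, 24.5 and 21.8 in OA control, 53.9 and 60.2 with OA, 15.3 and 13.8 in PA control, 14.7 and 15.6 with PA, 31.4 and 15.9 in TGFB1 control and 20.3 and 18.8 with TGFB1. ULA day 34 was lowest and OA highest, but OA overlapped with untreated replicate 2. PA and its control overlapped, as did TGFB1 and its control.

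IHH, the ligand of intestinal epithelium and growing cartilage, was at 13.2, 8.68 and 9.33 CPM in ULA day 21 and 0.231 and 1.12 on day 34. It was at 8.53 and 26.4 CPM untreated, 23.1 and 15.2 in OA control, 30.4 and 34.2 with OA, 9.88 and 8.23 in PA control, 7.81 and 9.07 with PA, 6.20 and 6.79 in TGFB1 control and 0.818 and 1.25 with TGFB1. Its TGFB1 libraries lay below both of their controls, as 42.0% of 19366 genes did, and its OA libraries above both of theirs. Between OA and its control 81.3% of those genes did not overlap, in either direction.

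PTCH1 stood at 33.9, 42.5 and 37.0 CPM in ULA day 21, 22.9 and 20.5 on day 34, 40.7 and 38.4 untreated, 19.7 and 26.4 in OA control and 1.29 and 1.70 with OA. It stood at 19.3 and 22.1 CPM in PA control, 12.6 and 9.75 with PA, 21.6 and 11.8 in TGFB1 control and 9.08 and 10.4 with TGFB1. HHIP spanned a wider range: 50.2, 61.8 and 50.7 CPM in ULA day 21, 16.2 and 21.6 on day 34, 37.9 and 19.7 untreated, 18.6 and 26.9 in OA control and 0.037 and 0.0191 with OA. It was at 1.45 and 3.93 CPM in PA control, 1.34 and 1.10 with PA, 3.67 and 3.63 in TGFB1 control and 3.18 and 4.18 with TGFB1. In descending order of group means, HHIP ran from ULA day 21 to untreated, OA control and ULA day 34, neighbours whose libraries overlap from untreated on, then far lower in TGFB1 and its control, the PA groups and OA.

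GLI2 and GLI3 had their highest group means in ULA day 34, while the highest for GLI1 was in OA control. GLI3 was at 22.0, 22.0 and 26.4 CPM on day 21 and 48.4 and 35.9 on day 34, GLI2 at 6.16, 6.90 and 6.08 and then 14.97 and 12.4. Both were higher in each day 34 library than in any of day 21, as were 31.5% of 22261 genes. GLI1 ran from 0.610 CPM in OA replicate 1 to 10.3 in OA control replicate 2, and its ULA day 21 libraries (6.64, 7.51 and 6.10) lay between those of day 34 (4.39 and 8.36). Whole-library values mix cell types, and in them fewer cells of a type and less RNA per cell cannot be told apart: the mesenchymal gate held 1.18% to 57.1% of cells.

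Across the 19 libraries HHIP correlated with GLI3 (Pearson r 0.908), GLI1 (0.888) and PTCH1 (0.849), and SHH with IHH (0.776), on log2(CPM + 1). These values are a description over libraries that differ in culture, depth and cell makeup. By the same measure over 11104 genes, the genes most like HHIP were ARHGAP28 (0.962), FILIP1 (0.959), ANGPT1 (0.955) and NPR3 (0.952), and HHIP-AS1 (0.948), an antisense neighbour of HHIP. Whether the counting used strand is not given in the sources used here. PTCH1 was most like NREP (0.926), MMP16, NAP1L1, CPXM1 and SIMC1, and SHH most like RNF128 (0.956), GATM, PPARG, PLLP and FOXA1. The genes most like IHH included TMPRSS4 (0.977), MEP1A, CAPN8 and AGR2.

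OA organoids had more of both ligands and few transcripts of the receptor, inhibitor and GLI genes. HHIP had 3 UMIs in both OA libraries together against 2454 in the OA control, a ratio per UMI sequenced of 0.00125 (exact 95% interval 2.57e-04 to 0.00365, counting error only). The same ratio was 0.0651 for PTCH1 (159 UMIs), 0.0854 for GLI1 (71), 0.0714 for GLI3 (110) and 0.0213 for GLI2 (9), against 2.46 for SHH and 1.67 for IHH. The libraries of OA and control did not overlap for any of the 7 genes, in a comparison where the same held for 81.3% of 19366 genes. With edgeR the log2 differences were -3.60 (SE 0.26) for PTCH1, -3.20 (SE 0.39) for GLI1, -3.46 (SE 0.40) for GLI3, 1.63 (SE 0.33) for SHH and 1.07 (SE 0.43) for IHH.

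Mesenchymal-gated cells were 1.94% and 1.18% of OA cells, 60 and 38 cells, against 35.3% and 37.5% in the control. No comparison in that gate was made for OA, since a library held fewer than 50 such cells. Those few cells held 1 and 0 UMIs of HHIP and 3 and 11 of PTCH1, and their 5 epithelial markers summed to 3082 and 3165 CPM against 779 and 835 in the control's gate. In the epithelial gate SHH was at 56.3 and 61.7 CPM with OA against 32.6 and 31.6, a log2 difference of 1.11 (SE 0.27), PTCH1 at 1.16 and 1.48 against 4.38 and 5.12, a log2 difference of -1.61 (SE 0.27), and IHH at 31.5 and 35.0 against 28.7 and 22.8. For all 3 genes the OA and control libraries did not overlap in CPM, as held for 77.2% of 17527 genes in that gate. After thinning, IHH overlapped, seen in 4.76% and 4.51% of epithelial-gated cells against 4.99% and 3.835% in the control. SHH was seen in 10.1% and 9.97% against 6.14% and 5.31%. Cells positive for both, outside this gate, held 44.1% and 62.3% of SHH and 47.4% and 61.2% of IHH UMIs in the control. With OA they held 2.78% and 3.88% of SHH and 3.89% and 4.31% of IHH UMIs. Gut epithelial markers, 6 genes, summed in the epithelial gate to 12030 and 9938 CPM with OA against 2638 and 1383. The part of these cells and markers in the ligand values was not tested.

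Of 38 other Hedgehog pathway genes, 35 were tested in whole libraries and 22 were called between OA and its control by edgeR at an adjusted p under 0.05, 21 lower and 1 higher. Among all 19366 genes 43.3% were called, 21.6% lower and 21.7% higher. The list's median log2 difference was -1.22, that of all genes -0.08. The mesenchymal targets FOXF1 and FOXF2 fell furthest, FOXF1 from 9.01 and 10.1 CPM to 0.074 and 0.0191 (log2 difference -7.26, SE 0.56, edgeR adjusted p 1.83e-06). The nuclear receptor NR2F1 fell by 4.42 on the log2 scale and the growth factor BMP4, made by mesenchyme in response to Hedgehog in the gut, by 3.40. Co-receptors that present ligand to PTCH1 fell as well: GAS1 from 8.60 and 13.4 to 0.518 and 0.804 CPM, and BOC and CDON. SMO fell from 10.5 and 15.1 to 1.37 and 1.78 CPM (log2 difference -2.67, SE 0.24, edgeR adjusted p 4.44e-06). The others that fell were the intracellular regulators KIF7, SUFU, STK36 and GPR161, the ligand acyltransferase HHAT, SCUBE3, GPC3, SFRP1, CCND2, MYCN, BCL2, NR2F2 and OSR1, and GSK3B, a kinase acting on GLI proteins, rose by 0.64.

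Part of this was measured inside the epithelial gate, where 19 of 33 tested list genes were called by edgeR, 17 lower and 2 higher, against 35.9% of 17527 genes, 16.8% lower and 19.1% higher. The list's median there was -1.06, that of all genes -0.07. SMO fell from 5.42 and 8.21 to 0.977 and 1.68 CPM (log2 difference -2.10, SE 0.28, edgeR adjusted p 0.000111), and BMP4, GPR161, MYCN and KIF7 fell by 2.84, 2.47, 2.81 and 3.07 on the log2 scale, the last between -4.23 and -2.14 with 1 library left out. GSK3B rose, and HHAT, SCUBE3, GAS1, GPC3, SUFU, STK36, CCND2, SFRP1, NR2F1, NR2F2 and OSR1 fell there as in whole libraries. SPP1 fell in this gate (log2 difference -1.71, SE 0.62) but was not called without OA control replicate 2, at -0.62, or without either OA library. DISP1, which releases ligand from the cell, rose there from 2.43 and 2.48 to 5.72 and 5.68 CPM (log2 difference 1.44, SE 0.25, edgeR adjusted p 0.000659). Leaving out OA control replicate 2, or OA replicate 1, gave a count of 8 in each case, against 18.9% and 17.9% of all genes. This gate's fits were added after the data had been seen. HHIP in this gate was at 0.304 to 0.452 CPM in the control and 0.0199 to 0.0205 with OA. Mesenchymal-gated cells were 35.3% to 37.5% of control cells and 1.18% to 1.94% of OA cells. The part of free RNA (from outside the cell), of mesenchymal cells in this gate and of the gut epithelial markers in these falls was not tested.

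With TGFB1, a factor that drives matrix production in fibroblasts, the response genes were lower in CPM in the mesenchymal gate. GLI2 was higher in the epithelial gate. Mesenchymal-gated HHIP was at 65.8 and 65.4 CPM in the control and 18.8 and 25.9 CPM with TGFB1, a log2 difference of -1.29 (SE 0.34). PTCH1 was at 61.8 and 32.9 against 10.3 and 10.6 CPM, a log2 difference of -1.82 (SE 0.41), and GLI1 at 17.5 and 8.47 against 4.38 and 4.02 CPM, -1.20 (SE 0.41). GLI2 (25.5 and 14.1 against 7.82 and 10.3 CPM) and GLI3 (43.0 and 27.8 against 15.9 and 22.1 CPM) were also lower in each TGFB1 library than in either control. All 5 were lower with no overlap, as were 34.4% of 14189 genes in that gate, and each rests on 13 to 139 UMIs per library. Whole-library HHIP did not separate the groups, and the gate held 8.55% and 9.56% of cells with TGFB1 against 4.57% and 3.92%. The gate is set by 2 collagen genes, and whether TGFB1 changed which cells entered it was not tested.

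Beside these values stand the marker levels in that gate. The 7 mesenchymal markers summed to 10000 and 10870 CPM with TGFB1 against 10430 and 11110. They include COL1A2 and COL3A1, which set the gate, so this sum is partly fixed by the gating. The 5 epithelial markers summed to 1448 and 1212 against 1335 and 939. DCN, a fibroblast proteoglycan, was at 43.5 and 65.8 CPM against 104 and 83.7. The cycling list was at 36.3 and 67.3 CPM against 266 and 97.4. Their part in the HHIP and PTCH1 values was not tested.

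GLI2 was higher with TGFB1 in the epithelial gate. It had 2 and 3 UMIs in the control libraries (0.222 and 0.0654 CPM) and 100 and 105 with TGFB1 (3.16 and 3.53 CPM), a log2 difference of 5.17 (SE 0.63), or 4.18 without TGFB1 control replicate 2. Both TGFB1 libraries lay far above both controls, and among all 17527 genes in that gate 23.0% were higher with no overlap. After thinning, GLI2 was seen in 0.502% and 0.657% of epithelial-gated cells with TGFB1 and in 0 of 1627 and 1 of 7099 cells of the control. HHIP in the same cells was at 0.917 and 0.571 CPM with TGFB1 against 0 and 0.196, on 46 UMIs against 9, and was seen in 10 and 8 thinned cells with TGFB1 (0.251% and 0.155%) against 0 and 1 in the control. The shares of both GLI2 and HHIP are small, and the part of free RNA in them was not tested. GLI3 was at 0.537 and 0.873 CPM with TGFB1 and 0.445 and 0.698 in the control, FOXF1 at 0.0948 and 0.0672 against 0.111 and 0.0654, and DCN at 0.0948 and 0 against 0.111 and 0.393. COL1A1, a collagen not used to set the gate, was at 347 and 405 against 33.5 and 17.2 CPM. IHH was lower there, at 0.885 and 1.34 against 6.89 and 7.37 CPM (log2 difference -2.50, SE 0.40), where 42.9% of genes were lower with no overlap, and SHH overlapped, at 23.1 and 21.8 against 36.2 and 17.1 CPM. The gut epithelial list, in which IHH is not a member, summed to 96.0 and 118 against 645 and 545 CPM, and its part in the IHH value was not tested.

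**Figure D4:**
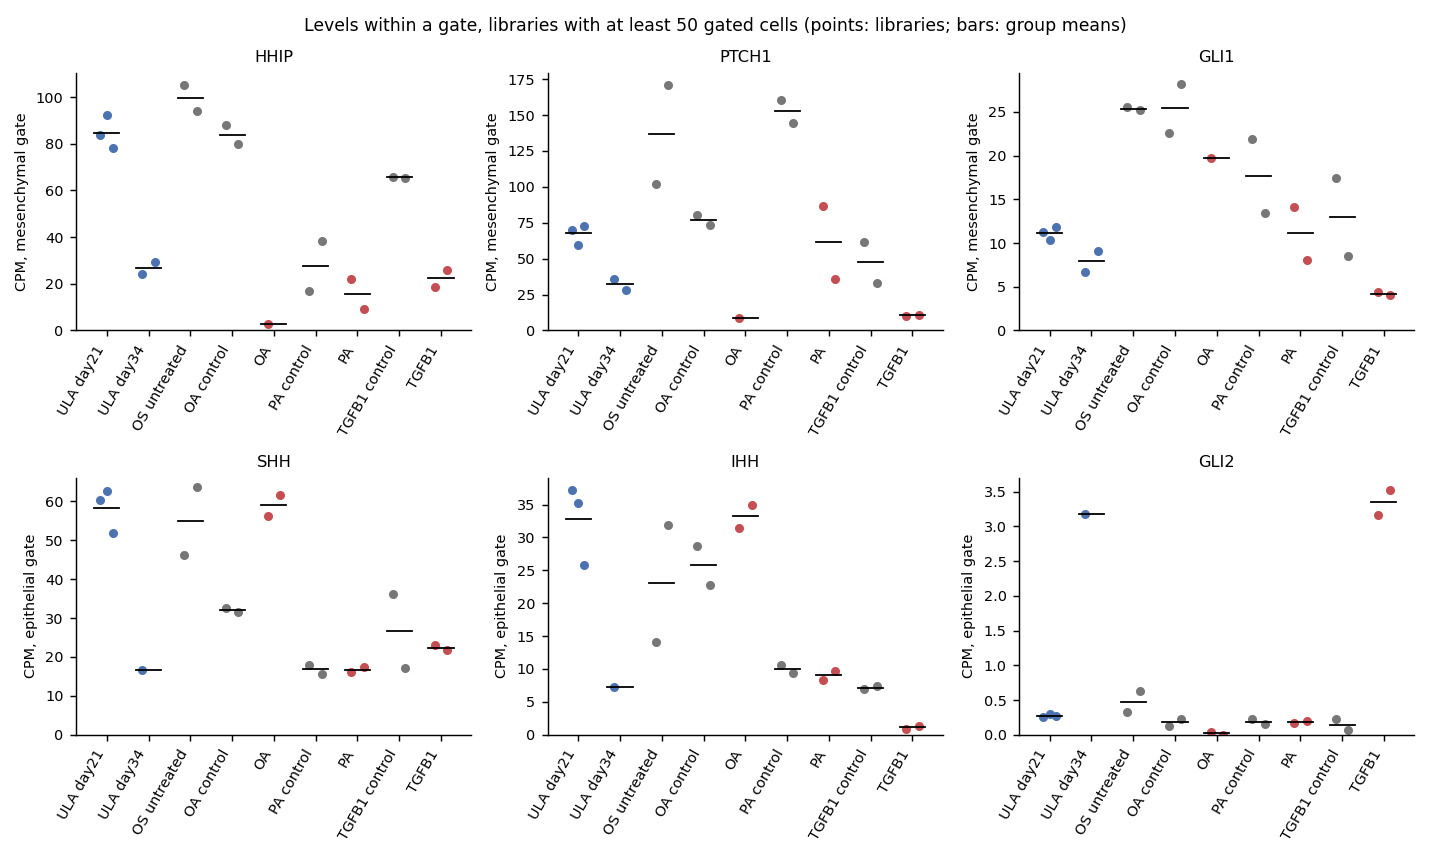
CPM of HHIP, PTCH1 and GLI1 in mesenchymal-gated cells (top) and of SHH, IHH and GLI2 in epithelial-gated cells (bottom), by group, for libraries with at least 50 cells in that gate; each point is 1 library, bars are group means, blue is ULA, grey untreated or control OS and red treated OS. HHIP, PTCH1 and GLI1 lie lower with TGFB1 than in its control, and epithelial GLI2 lies at 3.16 and 3.53 CPM with TGFB1 against 0.222 and 0.0654.

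Of the other pathway genes, 11 of 35 tested were called between TGFB1 and its control in whole libraries by edgeR, 6 higher and 5 lower, against 22.2% of 19366 genes, 10.9% higher and 11.3% lower. Scaling to library size alone moves the median of all genes from -0.05 to -0.24. With it 10 were called, 3 higher and 7 lower, against 23.1% of all genes, 7.31% higher and 15.8% lower. In the main fit the list's median was -0.09. PTHLH, a secreted peptide linked to IHH in cartilage, rose from 7.90 and 10.4 to 58.7 and 48.3 CPM (log2 difference 2.72, SE 0.37, edgeR adjusted p 0.000209), and FOXL1 by 1.77 (SE 0.32). SFRP1, a secreted WNT inhibitor, FOXF1, CDON and the kinase CSNK1A1 rose by 1.47, 1.31, 1.16 and 0.62, of which FOXF1, CDON and CSNK1A1 were not called under that scaling. SMO had a log2 difference of -1.48 (SE 0.22, adjusted p 0.000427 in edgeR), and those that fell beside it were LRP2, an endocytic receptor that binds ligand (-3.49), NR2F2 (-1.44), KIF7 (-1.34) and STK36 (-0.81). In place of 11, 7 were called when TGFB1 control replicate 1 was left out, 6 when TGFB1 replicate 1 was, and 5 when TGFB1 replicate 2 was, while the share of all genes called went from 22.2% to 11.5%, 8.41% and 11%. STK36 was not called in any of these fits, and its difference was -0.33 without TGFB1 control replicate 1.

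Epithelial-gated cells gave 11 of 33, 5 higher and 6 lower, against 25.0% of 17527 genes called by edgeR, 12.3% higher and 12.7% lower. With library size scaling, which moves the median of all genes there from -0.06 to -0.25, it was 12, 4 higher and 8 lower. PTHLH rose there from 9.34 and 10.6 to 68.2 and 56.2 CPM, FOXL1 from 1.78 and 1.42 to 5.31 and 5.51 CPM, and SMO fell from 26.8 and 21.2 to 5.06 and 6.95 CPM (log2 difference -1.79, SE 0.26, edgeR adjusted p 0.00024). GPC3, a glypican that binds ligand, fell from 5.78 and 5.34 to 1.49 and 1.95 CPM (log2 difference -1.50, SE 0.30). CDON, CSNK1A1 and SFRP1 rose there too, and KIF7, LRP2, NR2F2 and STK36 fell. That count was 7 without TGFB1 replicate 2, against 14.1% of all genes. In the mesenchymal gate 0 of 33 were called by edgeR, and 0.0211% of 14189 genes were called in all. Without TGFB1 control replicate 2 that share was 7.93%, with 1 list gene called.

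With PA, PTCH1 was lower and both ligands overlapped with the control. In whole libraries PTCH1 was at 12.6 and 9.75 CPM with PA against 19.3 and 22.1, a log2 difference of -0.84 (SE 0.24), and in the mesenchymal gate at 86.8 and 36.1 against 160 and 145 CPM, -1.37 (SE 0.37). The mesenchymal value was -2.06 without PA replicate 1 and -0.80 without PA replicate 2. PTCH1 was lower with no overlap in either scope, as were 14.6% of 19366 and 12.5% of 14189 genes. Whole-library HHIP lay below both controls too, at 1.34 and 1.10 against 1.45 and 3.93 CPM, with 10 UMIs in PA control replicate 1. Mesenchymal HHIP overlapped, at 22.2 and 9.20 against 17 and 38.4 CPM, as did GLI1 (14.1 and 8.10 against 21.9 and 13.4 CPM). SHH and IHH differed by 0.13 (SE 0.34) and -0.02 (SE 0.45) on the log2 scale.

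Mesenchymal cells of the PA experiment carried fewer smooth muscle transcripts with PA (5 genes, 206 and 179 against 510 and 789 CPM) and more hepatocyte transcripts (6 genes, 2280 and 2356 against 1453 and 1299 CPM), whose part in the PTCH1 values was not tested. Of the other pathway genes 0 of 35 were called by edgeR in whole libraries, against 0.0465% of all genes called by edgeR. DESeq2 called 1, FOXF1, lower, and 0.263% of all genes. In the mesenchymal gate 0 of 33 were called by edgeR, and 0.0% of all genes. In the epithelial gate 0 of 33 were called by edgeR, and 0.103% of all genes.

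Between day 21 and day 34 in ULA plates, mesenchymal cells had less HHIP, PTCH1 and GLI1 and more GLI2 and GLI3. Among the other genes listed as targets, FOXF2, BCL2, PTHLH and SPP1 rose and MYCN fell. Mesenchymal HHIP was at 83.7, 92.4 and 78.3 CPM on day 21 and 24.0 and 29.1 on day 34 (log2 difference -1.82, SE 0.18). PTCH1 went with it, at 69.9, 59.7 and 73.0 against 35.9 and 28.5 CPM (-1.20, SE 0.18), and GLI1, at 11.3, 10.3 and 11.8 against 6.66 and 9.13 CPM (-0.64, SE 0.20). GLI2 was higher on day 34, at 21.4 and 18.3 against 13.6, 10.3 and 13.0 CPM (0.56, SE 0.18), and so was GLI3, at 49.4 and 43.9 against 31.9, 24.6 and 40.1 CPM (0.41, SE 0.21). The GLI1 difference was -0.41 without day 34 replicate 1, and that of GLI3 was 0.26 without day 21 replicate 2. None of the 5 overlapped between days. In the same cells the 5 ductal markers summed to 264 and 1459 CPM on day 34 against 57.4, 58.1 and 61.7 on day 21, the cycling list to 403.5 and 447 against 753.5, 699 and 908, and the smooth muscle list to 131 and 67.8 against 47.2, 42.0 and 34.4. Their part in these values was not tested. Among 17414 genes 17.5% were lower and 32.9% higher with no overlap. Whole-library SHH and IHH were lower by log2 differences of -3.11 (SE 0.59) and -4.05 (SE 0.62). Without day 34 replicate 1 these were -2.39 and -3.34, and without day 34 replicate 2 they were -4.64 and -5.63. The epithelial gate held 23 cells in day 34 replicate 1, so ligand levels per epithelial cell were not compared. In day 34 replicate 2, with 747 such cells, SHH was at 16.7 CPM against 60.5, 62.7 and 51.8 on day 21.

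Day and dissociation cannot be told apart here, because the day 34 organoids alone had the added wash and trypsin. Of the other pathway genes 12 of 37 tested in the mesenchymal gate were called by edgeR, 8 higher and 4 lower, against 17.7% of 17414 genes, 10.5% higher and 7.2% lower, and the list's median was 0.12 against 0.01. CDON rose from 6.26, 5.81 and 5.91 to 21.7 and 21.7 CPM (log2 difference 1.72, SE 0.16, edgeR adjusted p 0.000973), and GAS1, BOC, FOXF2, EVC, BCL2, PTHLH and SPP1 rose too. MYCN fell by 2.44 and SCUBE1, which carries ligand away from the cell that made it, by 2.81 on the log2 scale, with DISP1 and GPC3. SPP1, a secreted protein of ductal cells, was at 21.6 and 295 CPM on day 34, beside 547.6 and 1597 CPM of 5 epithelial markers in the same cells, whose part was not tested. Its log2 difference of 4.39 was 1.55 without day 34 replicate 2. The count was 4 without day 21 replicate 1 and 5 without day 21 replicate 2 or 3, where 4.32%, 7.07% and 7.23% of all genes were called. Without day 34 replicate 1 it was 14, with 6 higher and 8 lower, against 20.9% of all genes, and BOC and EVC were not called.

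Whole ULA libraries gave 12 of 38, 9 higher and 3 lower, against 15.6% of 22261 genes called by edgeR, 8.43% higher and 7.19% lower. CDON, GAS1, BOC, FOXF2, EVC, BCL2 and PTHLH rose there as well, with EVC2, a cilium protein that works with SMO, and SUFU, the brake on GLI proteins. LRP2 fell by 1.91 and MYCN and SCUBE1 by 2.11 and 2.58. The count was 3, 5 and 2 without day 21 replicate 1, 2 and 3, where the share of all genes called was 3.54%, 6.49% and 3.17%. Without day 34 replicate 1 it was 18, with 7 higher and 11 lower, against 19.4% of all genes, and without day 34 replicate 2 it was 15, with 12 higher and 3 lower, against 30.7%. CDON and MYCN were called in each of these fits, and EVC2, FOXF2 and GAS1 were not called without day 34 replicate 1.

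OA control and untreated organoids, which share the OA control libraries with the OA comparison, overlapped in mesenchymal GLI1, while PTCH1 lay lower in that gate, and HHIP and GLI3 lay lower in CPM but changed sign in the fit with 1 library left out. Mesenchymal HHIP was at 87.8 and 80.0 against 105 and 94.2 CPM (log2 difference -0.05, SE 0.30, and 0.04 without OA control replicate 2) and PTCH1 at 80.3 and 73.4 against 102 and 171 CPM (-0.62, SE 0.33). The PTCH1 difference was -0.20 without untreated replicate 2 and -1.01 without untreated replicate 1. GLI1 overlapped, at 22.6 and 28.2 against 25.5 and 25.2 CPM. GLI3 ranged from 44.3 to 47.8 against 49.8 to 69.2 CPM, with a fitted difference of -0.18 (SE 0.23), or 0.03 without untreated replicate 1. HHIP, PTCH1 and GLI3 were lower in the OA control with no overlap, like 37.3% of 14189 genes there. Of the other pathway genes 0 of 35 were called by edgeR in whole libraries, against 0.573% of all genes called by edgeR. DESeq2 called 2, EVC and GSK3B, and 3.62% of all genes. In the mesenchymal and epithelial gates 0 of 33 were called by edgeR in each, against 0.0352% and 1.28% of all genes.

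**Figure D5:**
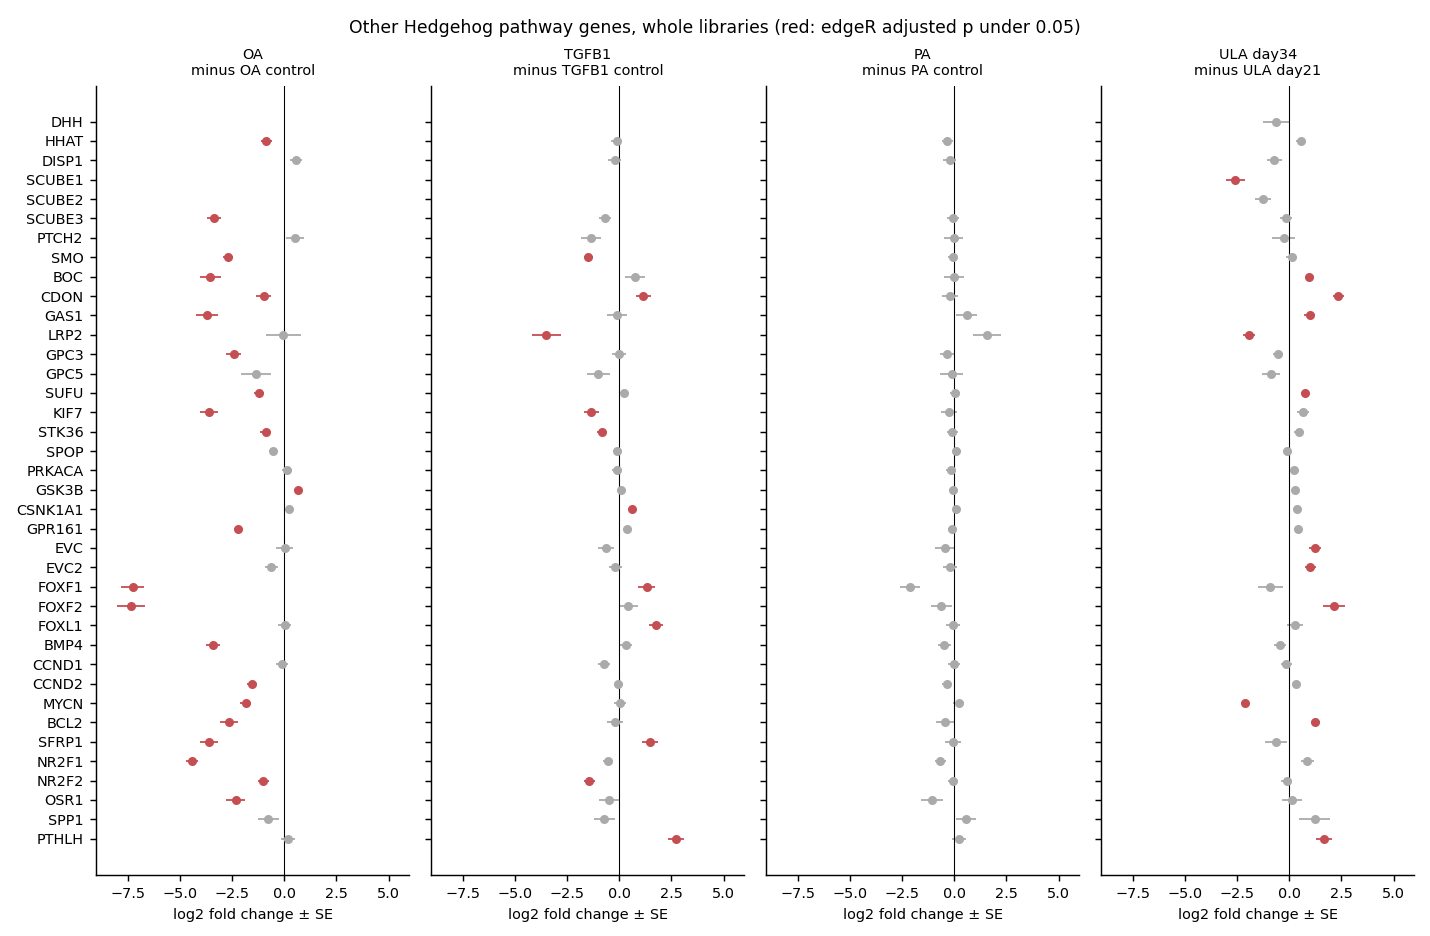
Log2 fold changes with standard errors (horizontal axis) of the other Hedgehog pathway genes in whole libraries, 1 panel per comparison, from edgeR; red points have an adjusted p under 0.05 over all genes and grey points do not. With OA 21 genes lie to the left of 0 in red, with FOXF1 and FOXF2 furthest, PA has 0 red points, and TGFB1 and ULA day 34 have 11 and 12.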

How the data were processed

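The authors deposited, for each of 19 libraries, unnormalized UMI counts for every gene and barcode from 10x Genomics 3′ version 3 libraries, already limited to barcodes with about 500 or more UMIs. Headers name Cell Ranger 6.0.2 for the OA and untreated experiment and software version 3.0.2 for the others. The submitters' processing notes name GRCh38. Gene annotations differed: 58721 identifiers for ULA, 33538 for TGFB1 and PA and 36601 for OA and untreated. 32732 were shared by the OS matrices.

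Kept cells had 500 genes or more and 20% mitochondrial counts or less (120240 of 138053 barcodes). No doublet caller was run; an alternative left out the cells with the most UMIs, 0.8% per 1000 barcodes. Counts were summed per library and gate. Two-sided edgeR 4.0.16 quasi-likelihood tests (R 4.3.3, TMM, filterByExpr, Benjamini-Hochberg over all genes, threshold 0.05) were fitted to 14 OS libraries together and to 5 ULA libraries; DESeq2 1.42.0 was an alternative. On simulated counts for 18514 genes of the TGFB1 comparison, 16% of 2-fold and 97% of 4-fold changes were called. Only genes above a floor of mean counts were changed, and every gene was given the same spread. These shares therefore do not describe genes with few UMIs or the spread of these libraries. Cells were thinned to 2000 UMIs for shares of cells.

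The members and gene lists were chosen with earlier results of these data known. The text names all members, every called pathway gene, the 5 genes most like HHIP, PTCH1, IHH and SHH (mean CPM of at least 5; 1 of those for IHH is not reported here), and genes among the 10 highest in cells with a UMI of one of these 4 (mean CPM of at least 50); pathway genes named for cells with a UMI or beside a member, and DCN and COL1A1, were picked after their values were seen. Replicate numbers were shared between groups, but same-numbered libraries deviated together nowhere above 0.0887 (correlation), so they were not treated as pairs. Positions are from GENCODE 44.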

Additional observations from a re-analysis of the deposited data

How the results depend on the processing

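Calls depended on libraries and settings as follows. The replicate block, which fits the replicate number as a factor, gave 7 called pathway genes for TGFB1 in whole libraries, 0 for ULA in whole libraries and 7 for ULA in the mesenchymal gate, against 16.2%, 0% and 8.94% of all genes, and moved no other count by over 1.5 times. Correlations of same-numbered libraries were -0.222 (TGFB1), 0.0887 (PA), 0.0408 (OA), -0.44 (OA control with untreated) and -0.259 (ULA). With numbers crossed, chosen after seeing the data, 12 were called for TGFB1 and 0 for OA control against untreated. The shares of all genes called in these crossed fits are not given here. Without a filter on low counts PA gave 2 and OA control against untreated 3, against 0.583% and 1.88% of all genes, and DESeq2 gave 1 and 2; the cause was not tested.

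Leaving out 1 library left 1 lone library in an arm, assumed to vary like the others, except for ULA day 21, which held 3. The shares of all genes called also changed between these fits, so the ranges below do not describe the pathway list alone. In whole libraries, leaving out 1 library gave 5 to 11 for TGFB1, 0 for PA and 18 to 20 for OA. It gave 0 to 1 there for OA control against untreated and 2 to 18 for ULA. It gave 0 to 1, 0, 0 and 4 to 15 for TGFB1, PA, OA control against untreated and ULA in the mesenchymal gate, and 7 to 13, 0, 8 to 15 and 0 to 1 for TGFB1, PA, OA and OA control against untreated in the epithelial gate. Differences of OA control against untreated, between libraries that did not overlap, changed sign in 3 cases: SHH in whole libraries (-1.137 to 0.061, positive without untreated replicate 2), mesenchymal HHIP (-0.168 to 0.044, positive without OA control replicate 2) and mesenchymal GLI3 (-0.382 to 0.03, positive without untreated replicate 1). Of the member differences under all settings 781 moved by less than their spread and 186 by more; of those of the named pathway genes 815 kept direction and call and 171 kept direction only. Scaling to library size moved the median of all genes by over 0.1 in 4 whole-library comparisons, for OA from -0.08 to -0.43. In the mesenchymal gate, cells were few with OA (60 and 38), and UMIs per gene were few for TGFB1, as given. They were few for PA too, with 47 of HHIP and 36 of GLI1 in both PA libraries together. Their part in the precision was not tested.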
